A study of Mus musculus with 48 samples.

Results

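Genes of the interferon response and of antigen presentation were followed in whole kidneys of mice given vancomycin, a glycopeptide antibiotic that can injure the kidney. The genes were chosen by symbol: all named genes beginning with H2-, Gbp, Ifi, Irf, Oas or Stat plus a digit, with Tap1, Tap2, Tapbp, Psmb8, Psmb9 and Psmb10. Of the 7859 genes that could be named, 51 met this rule, and 42 of them were bright enough to be tested. Female BALB/c mice received 7 daily injections and were killed on day 8. Each route, intravenous (iv) or intraperitoneal (ip), had groups on saline and on vancomycin at 50, 200 or 400 mg/kg per day, which gave 8 groups of 6 mice with 1 single-colour array per mouse. Values are log2 intensities, and differences are given as log2 units, so that 1 unit is a 2-fold change. The 3 dose groups of a route share that route's saline group, so their comparisons are not independent of each other.

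Names in the deposited table need care. The order of the values is shifted against the probe set identifiers beside them, and a gene was named only in 3 stretches of rows where a constant shift had been found. With the shift, the effect of ip 400 mg/kg correlated at 0.87 between the probe sets of 1036 genes that had exactly 2 of them. Under the identifiers as listed the same correlation was 0.10 over 970 genes. Another 38 genes that meet the symbol rule are on the platform but lie outside the named rows, among them Tap1, Tap2, Psmb9, Psmb10 and Irf1, and they were not analysed here. Every statement on a gene below holds as far as the shifts do. H2-K1, H2-D1, H2-Aa, H2-Ab1, H2-Ea, Irf2, Irf3, Ifi27l2b and Ifi202b were read by probe sets of types that can bind related transcripts (x_at or s_at), so their signal may include near-identical genes.

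Interferons bind receptors whose kinases phosphorylate STAT proteins. STAT dimers, and complexes that hold Stat2 and Irf9, enter the nucleus and bind short elements in the promoters of interferon-stimulated genes. Class I molecules of the major histocompatibility complex show peptides from the cytosol on nearly all cells, whereas class II molecules show peptides from endosomes mainly on macrophages, dendritic cells and B cells, and can be induced on tubular epithelium by interferon gamma. In the kidney both sets are known from rejection, ischaemia and toxic injury.

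The promoter letters of these elements are shown for 8 genes that were picked because they carry them and whose levels moved at 400 mg/kg. Sequences are RefSeq's on mouse build GRCm38.p6, a C57BL/6J reference whose H2 alleles differ from those of BALB/c, 5′ to 3′ on the strand of the gene, and each stretch ends before the annotated start of transcription. For the first 5, capitals mark matches on either strand to GAAA, any 2 bases and GAAA again, the core letters of the interferon-stimulated response element that complexes with Stat2 and Irf9 bind. For the last 3, capitals mark matches on either strand to CTGATTGG, the Y box of H2 gene promoters, which nuclear factor Y binds.
Gbp2 (chr3:142620579-142620638, plus strand): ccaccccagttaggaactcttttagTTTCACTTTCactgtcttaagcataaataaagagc
Gbp3 (chr3:142559974-142560033, plus strand): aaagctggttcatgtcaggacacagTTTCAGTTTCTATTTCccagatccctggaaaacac
Gbp7 (chr3:142530258-142530317, plus strand): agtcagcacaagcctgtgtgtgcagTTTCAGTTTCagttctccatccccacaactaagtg
Oas1a (chr5:120907526-120907585, minus strand): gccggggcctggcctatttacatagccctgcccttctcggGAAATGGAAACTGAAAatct
Stat2 (chr10:128270251-128270310, plus strand): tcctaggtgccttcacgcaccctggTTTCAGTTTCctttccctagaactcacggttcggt
H2-Aa (chr17:34287841-34287900, minus strand): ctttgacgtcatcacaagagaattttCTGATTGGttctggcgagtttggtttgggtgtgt
H2-Eb1 (chr17:34305779-34305838, plus strand): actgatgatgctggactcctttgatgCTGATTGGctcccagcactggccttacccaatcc
H2-D1 (chr17:35263015-35263074, plus strand): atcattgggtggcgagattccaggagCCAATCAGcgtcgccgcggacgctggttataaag

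A window of 300 bases around the start, 250 before it and 50 after, was found for 40 of the 51 genes. The paired GAAA letters occurred in 11 of these 40 (27.5%), against 3.99% of all 27018 genes with a window and 3.81% of the 4650 tested genes with one. Gbp3 and Oas1a each carried 2 overlapping matches, which the runs of capitals show. The 11 were Gbp2, Gbp3, Gbp7, Ifih1, Ifitm2, Ifitm3, Irf2, Oas1a, Oas1c, Oas3 and Stat2. Ifi202b, Irf7 and Psmb8, which had large differences at 400 mg/kg, had a window without the paired GAAA letters. CTGATTGG occurred in 5 of 40 (12.5%), namely H2-Aa, H2-D1, H2-Eb1, H2-K1 and Irf8, against 4.70% of all genes and 6.17% of the tested genes. TTCNNNGAA, the letters of a STAT dimer site, occurred in 10 of 40 (25%), against 9.55% of all genes and 8.60% of the tested genes, with Ifi202b, Psmb8, Ifit2 and Irf8 among the 10. Matches to the paired GAAA letters and to TTCNNNGAA did not exclude each other, and Gbp7, Ifitm3, Irf2 and Oas1a held both. A match describes letters in this window of the reference and was not tested for binding.

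At 400 mg/kg the interferon and antigen presentation genes were higher by both routes. By iv, 35 of the 42 tested genes rose and 1, Stat5b, fell (limma, two-sided moderated test, Benjamini-Hochberg adjusted p under 0.05 over all 24930 tested probe sets). Of all tested probe sets 41.2% were called in this comparison, 23.8% as higher and 17.5% as lower, and of the 5745 tested named genes 29.9% were higher. By ip, 40 of 42 rose and none fell, where 57.2% of all tested probe sets were called, 31.7% as higher, and 35.9% of tested named genes were higher. The median difference of the 42 genes was 1.52 at iv 400 and 2.03 at ip 400 mg/kg, while the median over all tested probe sets was 0.03 and 0.05. Ifi202b, Irf7, Oas1a and Psmb8 had the largest differences by both routes. Gbp8, Ifi209 and Oasl1 are counted as higher by both routes, though their means in both saline groups lay under the table's median of 3.47. The filter used that median and could admit them through dosed groups where they are high, so their calls add no separate support.

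Only the iv route showed calls at 200 mg/kg. There 14 of 42 genes rose and none fell, with a median difference of 0.56. Of all tested probe sets 5.38% were called, 4.22% as higher, and of tested named genes 5.45% were higher. By ip 200 mg/kg, 0 of 42 were called (limma, background 0.0201%) and 1, Ifitm1, had an unadjusted p under 0.05, with a difference of 0.60 ± 0.28 (SE) and a median over the 42 genes of 0.03. At 50 mg/kg, 0 of 42 were called by iv (background 0.786%) and 0 by ip (background 0.016%), and in both comparisons 0 had an unadjusted p under 0.05. None of the 3 comparisons without calls gained one under any other setting of normalization, filter or fit that was tried. The medians at iv 50 and ip 50 mg/kg were -0.05 and -0.02.

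**Figure D1:**
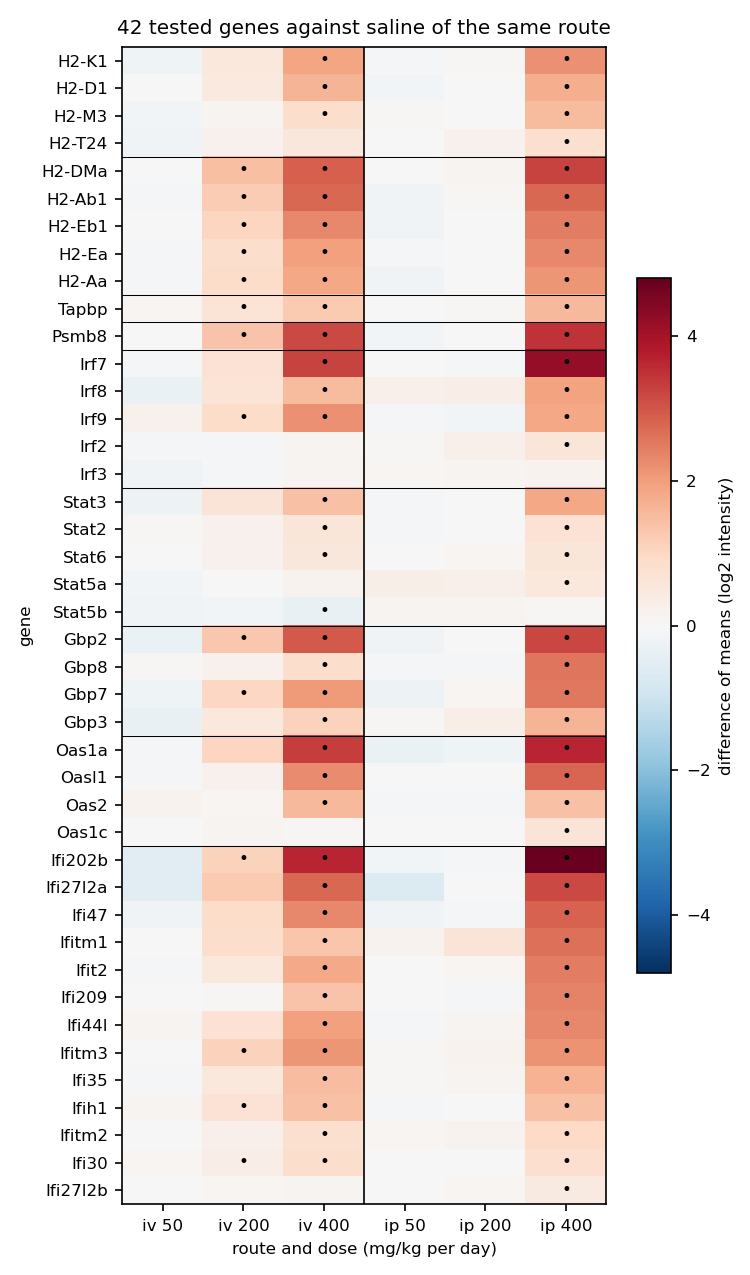
Differences of group means (colour, log2 intensity) for the 42 tested genes (vertical axis, grouped by role) at each route and dose against saline of that route (horizontal axis); a dot marks an adjusted p under 0.05. The iv 400 and ip 400 columns carry 36 and 40 dots, the iv 200 column 14, and the other columns none.

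Between 200 and 400 mg/kg, 33 of 42 genes rose further by iv, where 24.2% of all tested probe sets were called, 12.7% as higher. By ip 38 of the 42 rose, where 55.2% of all tested probe sets were called, 30.7% as higher. The median step was 1.00 by iv and 1.99 by ip. All 6 mice lay above all 6 comparison mice for 28 genes at iv 400 against saline (background 11.3% of tested probe sets), for 35 at ip 400 against saline (19.8%) and for 35 at ip 400 against ip 200 (19.2%). For iv 400 against iv 200 this held for 9 genes (2.27%), namely Ifi202b, Ifi27l2a, Ifi30, Ifi35, Irf7, Irf9, Oas1a, Oas2 and Psmb8. By ip the dose groups thus split between 200 and 400 mg/kg for most of these genes. By iv the mean of the 200 mg/kg mice over the 42 genes lay between saline and iv 400. The lowest iv 200 mouse, at 0.04 against the iv saline mean, stayed within the saline range of -0.23 to 0.15. A difference between routes at 200 mg/kg is not shown by the interaction given below.

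Centring arrays on their medians or quantile normalization moved the median of all tested probe sets by more than 0.1 for ip 400 against ip 200, from 0.04 to -0.07 and -0.09, and quantile normalization moved it for ip 400 against saline from 0.05 to -0.09. The largest move was for ip saline against iv saline, from 0.41 to 0.25 and -0.005. With arrays centred, the share of higher calls among all called probe sets went from 55.6% to 43.3% for ip 400 against ip 200. No called difference of these genes at 400 mg/kg changed sign under either scaling.

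All 5 named class II genes were tested, and all 5 rose at iv 200, iv 400 and ip 400 mg/kg, with median differences of 1.03, 2.30 and 2.45. The share of higher calls over all tested probe sets was 4.22%, 23.8% and 31.7%. H2-Ab1, the beta chain of the I-A molecule, lay at 7.54, 8.02 and 8.17 (lowest, median and highest mouse) in iv saline, at 7.78, 9.20 and 10.66 at iv 200 and at 9.15, 10.85 and 11.31 at iv 400 mg/kg. In ip saline it lay at 8.07, 8.31 and 9.00, and at ip 400 mg/kg at 10.15, 11.36 and 11.59. The 400 mg/kg mice of each route all exceeded their saline mice, and 1 iv 200 mouse remained within the saline range. The differences from saline were 1.22 ± 0.29 at iv 200 (SE, adjusted p = 0.007), 2.75 ± 0.29 at iv 400 (adjusted p = 1.7e-10) and 2.77 ± 0.29 at ip 400 mg/kg (adjusted p = 4.7e-11).

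H2-DMa encodes a chain of the DM molecule, which loads peptides onto class II molecules. It lay at 4.27, 4.92 and 5.13 in iv saline, at 4.69, 6.62 and 7.51 at iv 200 and at 7.04, 7.88 and 8.15 at iv 400 mg/kg. By ip it moved from 3.83, 4.40 and 4.62 in saline to 6.48, 7.81 and 7.99 at 400 mg/kg. The iv 200 mice were widely spread, with 1 mouse inside the saline range and another, at 5.16, just above it. Its rise was 1.45 ± 0.28 at iv 200 (adjusted p = 0.00072), 2.87 ± 0.28 at iv 400 and 3.25 ± 0.28 at ip 400 mg/kg.

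H2-Aa and H2-Eb1, a chain each of I-A and I-E, share the Y box letters shown above. H2-Aa lay at 8.89, 9.02 and 9.38 in iv saline and at 9.58, 11.21 and 11.51 at iv 400 mg/kg. By ip it rose from 8.89, 9.22 and 10.01 to 10.38, 11.47 and 12.12. The groups did not overlap by either route, and the lowest iv 400 mouse stood well under the other 5. H2-Eb1 went from 8.01, 8.23 and 8.41 to 9.27, 10.83 and 10.98 by iv, and from 8.39, 8.61 and 9.35 to 10.08, 11.20 and 11.85 by ip. H2-Aa was higher by 1.87 ± 0.27 and 2.11 ± 0.27, H2-Eb1 by 2.30 ± 0.26 and 2.45 ± 0.26, at iv 400 and ip 400 mg/kg. H2-Ea, the other I-E chain, rose by 1.97 ± 0.26 and 2.31 ± 0.26. Cd74, the invariant chain that escorts class II molecules and is no H2 gene, was higher by 2.36 ± 0.27 by both routes (adjusted p = 1.3e-09 by iv and 4.8e-10 by ip). Ciita, the class II transactivator, lay under the table's median in every group and was not tested.

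Of 7 named class I genes 4 were tested. H2-K1, a classical class I heavy chain, lay at 9.39, 9.61 and 10.01 in iv saline, at 9.32, 10.09 and 11.00 at iv 200 and at 10.91, 11.52 and 11.96 at iv 400 mg/kg. In ip saline it lay at 9.46, 9.81 and 10.16, and at ip 400 mg/kg at 11.55, 11.87 and 12.51. All 400 mg/kg mice were above all saline mice of their route, while the iv 200 mice overlapped both neighbouring groups. The rise was 1.89 ± 0.19 (3.72-fold, adjusted p = 5.9e-11) at iv 400 and 2.19 ± 0.19 (4.55-fold, adjusted p = 3.4e-13) at ip 400 mg/kg, and the difference at iv 200, 0.49 ± 0.19, did not pass (adjusted p = 0.14).

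H2-D1, another classical heavy chain and a carrier of the Y box letters, went from 10.16, 10.53 and 10.82 to 11.26, 12.33 and 12.51 by iv. By ip it went from 11.04, 11.19 and 11.60 to 12.51, 13.01 and 13.45. Neither pair of groups overlapped. It rose by 1.64 ± 0.17 and 1.73 ± 0.17, and its other 2 probe sets, on the same scale, differed by 1.85 and 1.29 at iv 400 and by 2.39 and 1.84 at ip 400 mg/kg. H2-M3, which presents formylated peptides, rose by 0.84 ± 0.18 and 1.51 ± 0.18. H2-T24, a non-classical gene, passed at ip 400 (0.78 ± 0.27, adjusted p = 0.012) and not at iv 400 mg/kg (0.56 ± 0.27, adjusted p = 0.095). Without iv 400 mouse 44 the latter was 0.74 (adjusted p = 0.028), and under quantile normalization the ip difference was 0.49 (adjusted p = 0.11). No class I gene was called at iv 200 mg/kg, against all 5 class II genes. That contrast between the groups was not itself tested.

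Tapbp, or tapasin, bridges class I molecules to the peptide transporter. It lay at 8.69, 9.14 and 9.26 in iv saline, at 9.22, 9.77 and 10.17 at iv 200 and at 9.87, 10.19 and 10.91 at iv 400 mg/kg, and by ip moved from 9.22, 9.52 and 9.75 to 10.42, 11.12 and 11.57. The 400 mg/kg groups were separate from saline by both routes. Tapbp rose by 0.65 ± 0.16 at iv 200 (adjusted p = 0.0079), 1.27 ± 0.16 at iv 400 and 1.55 ± 0.16 at ip 400 mg/kg. Tapbpl, its relative, was too dim to test.

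Psmb8 is the only immunoproteasome subunit that was named. It replaces a catalytic subunit of the standard proteasome under interferon and favours peptides that fit class I molecules. It lay at 5.56, 6.31 and 6.60 in iv saline, at 6.54, 7.68 and 8.49 at iv 200 and at 8.49, 9.44 and 10.15 at iv 400 mg/kg. In ip mice it was 6.09, 6.46 and 7.02 on saline, 6.19, 6.51 and 6.85 at 200 and 9.17, 10.06 and 10.72 at 400 mg/kg. From saline through 200 to 400 mg/kg the iv groups climbed, with a small overlap between saline and 200 mg/kg. At iv 50 mg/kg the difference from iv saline was -0.01. The ip 200 mice lay inside the range of ip saline. Psmb8 rose by 1.36 ± 0.26 at iv 200 (adjusted p = 0.00056), by 3.16 ± 0.26 at iv 400 (8.96-fold, adjusted p = 2.5e-13) and by 3.49 ± 0.26 at ip 400 mg/kg (11.2-fold, adjusted p = 3e-15).

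Subunits of the standard proteasome moved far less. Of 8 named and tested, 7 rose at iv 400 and 6 at ip 400 mg/kg, with medians of 0.49 and 0.41. The share of higher calls over all tested probe sets was 23.8% at iv 400 and 31.7% at ip 400 mg/kg. Psmc6, Psma5 and Psmd14 were the largest at ip 400 mg/kg, at 0.51 ± 0.08, 0.51 ± 0.11 and 0.49 ± 0.13. Psmb8 therefore differed from saline by several times the difference of any of these 8 genes, whose highest values were 0.64 at iv 400 and 0.51 at ip 400 mg/kg.

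Among transcription factors, Irf7, which drives the amplification of type I interferon, had the widest change. It lay at 3.47, 4.13 and 4.41 in iv saline, at 4.09, 4.58 and 5.47 at iv 200 and at 6.10, 7.35 and 8.75 at iv 400 mg/kg. By ip it lay at 3.92, 4.05 and 4.19 on saline and at 7.17, 8.41 and 9.13 at 400 mg/kg. All iv 400 mice lay above all iv 200 mice and all saline mice, and the iv 200 group overlapped saline. The rise was 3.25 ± 0.29 at iv 400 (9.48-fold, adjusted p = 1.4e-12) and 4.22 ± 0.29 at ip 400 mg/kg (18.6-fold, adjusted p = 1.9e-16), against 0.70 ± 0.29 at iv 200 (adjusted p = 0.16).

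Irf9, a DNA-binding partner of Stat2, lay at 3.99, 4.92 and 5.56 in iv saline, at 5.01, 5.86 and 6.28 at iv 200 and at 6.43, 7.28 and 7.66 at iv 400 mg/kg. In ip mice it moved from 5.67, 5.94 and 6.18 to 7.54, 7.80 and 8.02. Both 400 mg/kg groups were separate from saline. Irf9 rose by 0.90 ± 0.22 at iv 200 (adjusted p = 0.0089), 2.18 ± 0.22 at iv 400 and 1.86 ± 0.22 at ip 400 mg/kg. Irf8, a factor of the monocyte and dendritic cell lineages, went from 5.77, 6.29 and 6.66 to 7.01, 7.72 and 8.35 by iv and from 6.01, 6.29 and 6.91 to 7.55, 8.35 and 8.79 by ip. Its groups did not overlap, and the rise was 1.50 ± 0.28 and 1.95 ± 0.28.

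Irf3, which is made constitutively and acts through phosphorylation, stood apart from these factors. Its values were 7.63, 8.15 and 8.23 in iv saline and 7.99, 8.18 and 8.52 at iv 400 mg/kg, and 7.98, 8.32 and 8.42 in ip saline and 8.25, 8.31 and 9.00 at ip 400 mg/kg. The groups overlapped throughout. Its differences were 0.12 ± 0.11 (adjusted p = 0.42) and 0.16 ± 0.11 (adjusted p = 0.21), and its second brightest probe set gave the opposite sign, at -0.10 and -0.13. Irf2, which competes with activating factors at the same element, passed at ip 400 (0.60 ± 0.14, adjusted p = 0.00033) and not at iv 400 mg/kg (0.14 ± 0.14, adjusted p = 0.46). Irf4, a lymphocyte factor, was not above the table's median in any group.

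Of the STAT genes, Stat3, which carries signals of the interleukin 6 family, changed most. It lay at 7.67, 8.59 and 8.94 in iv saline and 9.61, 9.95 and 10.17 at iv 400 mg/kg, and at 8.62, 8.79 and 9.06 in ip saline and 10.18, 10.80 and 11.10 at ip 400 mg/kg. There was no overlap at 400 mg/kg by either route. Stat3 rose by 1.42 ± 0.21 and 1.85 ± 0.21 (adjusted p = 3.3e-07 and 3.4e-10), and a second, dim probe set that was not tested differed by 0.14 and 0.01.

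Stat2, whose promoter letters are shown above, was near the table's median of 3.47, so the size of its change is approximate. Its level was 3.05, 3.57 and 3.73 in iv saline and 3.62, 4.00 and 4.72 at iv 400 mg/kg, and 3.32, 3.40 and 3.49 in ip saline and 3.59, 4.06 and 4.58 at ip 400 mg/kg. The iv groups overlapped and the ip groups did not. The differences were 0.58 ± 0.14 and 0.70 ± 0.14 (adjusted p = 0.00069 and 4.2e-05). Stat6, the factor of interleukin 4 signals, rose by 0.54 ± 0.12 and 0.59 ± 0.12, while its second probe set differed by 0.29 and 0.05.

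The STAT5 genes act in growth hormone and cytokine signals. Stat5a passed at ip 400 mg/kg with 0.51 ± 0.16 (adjusted p = 0.0071), and under quantile normalization it had a difference of 0.24 (adjusted p = 0.23). Stat5b fell by 0.36 ± 0.15 at iv 400 mg/kg (adjusted p = 0.044) and differed by 0.04 ± 0.15 at ip 400 mg/kg. Its iv values were 6.48, 6.60 and 6.78 on saline and 5.90, 6.35 and 6.44 at 400 mg/kg, with every dosed mouse below every saline mouse. The call was lost without a filter on low values (adjusted p = 0.071), and without any one of iv saline mice 1, 5 or 6 or iv 400 mice 43, 44 or 48, with adjusted p from 0.053 to 0.12.

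**Figure D2:**
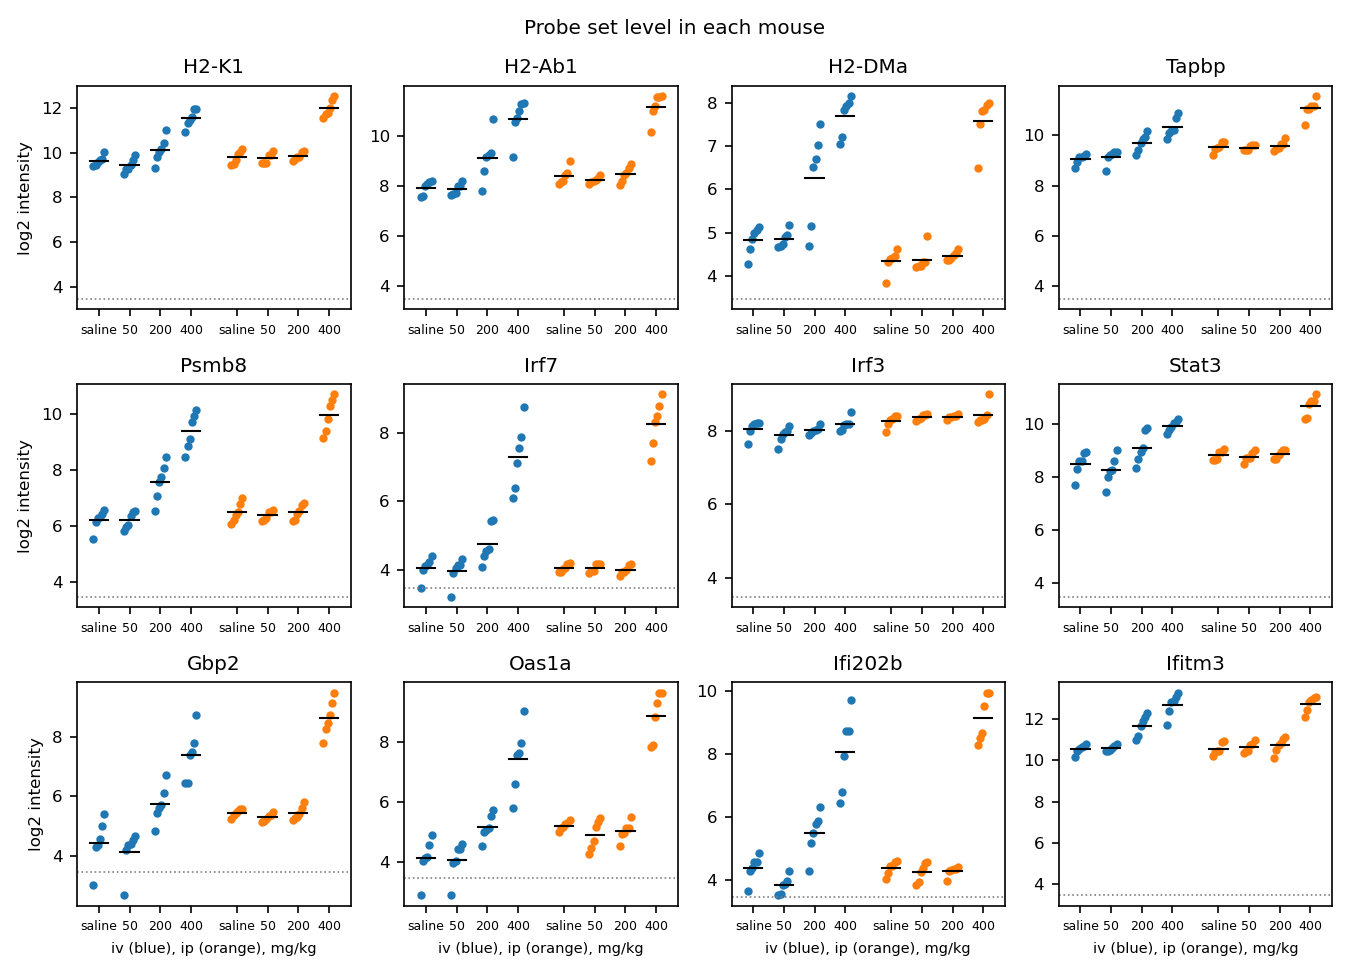
Log2 intensity (vertical axis, its range differing between panels and not starting at 0) of 12 genes in every mouse (points) by route and dose (horizontal axis); black bars are group means of 6 mice and the dotted line is the table's median of 3.47. In 11 panels the 400 mg/kg mice of both routes stand above saline, the ip 50 and ip 200 groups stay near ip saline, and Irf3 shows no such step.

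All 4 named guanylate-binding proteins, large GTPases that attack intracellular pathogens and their vacuoles, rose at 400 mg/kg by both routes. Over all tested probe sets 23.8% were higher at iv 400 and 31.7% at ip 400 mg/kg. Gbp8 is among the 4, though its means in both saline groups lay under the table's median. Gbp2 lay at 3.01, 4.46 and 5.43 in iv saline, at 4.84, 5.66 and 6.72 at iv 200 and at 6.44, 7.44 and 8.73 at iv 400 mg/kg. In ip mice it lay at 5.25, 5.48 and 5.59 on saline and at 7.81, 8.61 and 9.49 at 400 mg/kg. Both 400 mg/kg groups were clear of saline, and the iv 200 mice overlapped both. Gbp2 rose by 1.30 ± 0.33 at iv 200 (adjusted p = 0.012), 2.94 ± 0.33 at iv 400 (7.67-fold) and 3.20 ± 0.33 at ip 400 mg/kg (9.18-fold).

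Gbp7 was 1 of only 2 genes, with Ifitm3, whose iv 200 mice all lay above the saline mice (background 1.17% of tested probe sets). It lay at 6.28, 6.83 and 7.07 in iv saline, at 7.12, 7.74 and 8.34 at iv 200 and at 7.46, 8.71 and 9.96 at iv 400 mg/kg. At ip 400 mg/kg it was 8.96, 9.59 and 9.94, against 6.36, 7.06 and 7.52 on ip saline. It rose by 1.01 ± 0.26, 2.04 ± 0.26 and 2.53 ± 0.26 at iv 200, iv 400 and ip 400 mg/kg, and its second probe set by 1.39 at iv 400 and 2.00 at ip 400 mg/kg. Gbp3 rose by 1.09 ± 0.26 and 1.64 ± 0.26 at the 400 mg/kg doses.

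Oligoadenylate synthetases sense double-stranded RNA and activate RNase L. Of 8 named, 4 were tested, and Oas1b, Oas1e, Oas1h and Oas3 were under the table's median in every group. Oas1a, with matching letters directly before its start, lay at 2.89, 4.14 and 4.90 in iv saline, at 4.51, 5.09 and 5.74 at iv 200 and at 5.79, 7.60 and 9.04 at iv 400 mg/kg. By ip it lay at 4.98, 5.20 and 5.40 on saline and at 7.83, 9.08 and 9.65 at 400 mg/kg. The iv 400 mice were above all iv 200 mice, and the ip 400 mice above all ip saline mice. Oas1a rose by 3.32 ± 0.36 at iv 400 (10.0-fold, adjusted p = 2.7e-10) and 3.66 ± 0.36 at ip 400 mg/kg (12.6-fold, adjusted p = 7.2e-12), and its difference at iv 200, 1.05 ± 0.36, did not pass (adjusted p = 0.079).

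Oasl1, a relative without synthetase activity, was near or under the table's median on saline, with 3.21, 3.39 and 3.50 by iv and 3.37, 3.45 and 3.61 by ip. It reached 3.91, 5.84 and 7.02 at iv 400 and 5.20, 6.35 and 7.22 at ip 400 mg/kg. All dosed mice exceeded all saline mice, and the fitted differences of 2.25 ± 0.30 and 2.78 ± 0.30 start from a level not told from background. Oas2 rose by 1.54 ± 0.23 and 1.40 ± 0.23.

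The 13 named genes beginning with Ifi encode several unrelated kinds of protein that interferon induces. All 13 rose at ip 400 mg/kg, 12 at iv 400 and 4 at iv 200 mg/kg, with medians of 2.32, 1.47 and 0.69. Higher calls over all tested probe sets were 31.7%, 23.8% and 4.22% in these comparisons. Ifi209, under the table's median on saline by both routes, differed by 1.36 at iv 400 and 2.39 at ip 400 mg/kg. These sizes start from a level not told from background and are approximate. Ifi202b, a DNA-binding protein of the p200 family, had the largest difference of the whole set, read by a probe set that can be shared with related transcripts. It lay at 3.68, 4.48 and 4.88 in iv saline, at 4.29, 5.65 and 6.34 at iv 200 and at 6.46, 8.34 and 9.72 at iv 400 mg/kg, and by ip it moved from 4.06, 4.45 and 4.61 to 8.30, 9.10 and 9.96. The iv 400 mice were spread over more than 3 log2 units but did not overlap the iv 200 mice. The rise was 1.10 ± 0.34 at iv 200 (adjusted p = 0.047), 3.66 ± 0.34 at iv 400 (12.7-fold, adjusted p = 6.9e-12) and 4.75 ± 0.34 at ip 400 mg/kg (27.0-fold, adjusted p = 1e-15).

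Ifi27l2a, a small membrane protein, varied more among saline mice, at 7.13, 8.21 and 10.16 by iv and 7.48, 8.54 and 10.90 by ip. At 400 mg/kg it lay at 10.53, 11.08 and 11.54 by iv and at 11.36, 11.89 and 13.32 by ip. The groups still did not overlap, and the rise was 2.77 ± 0.43 and 3.19 ± 0.43. Ifitm3, which blocks the entry of enveloped viruses, lay at 10.17, 10.60 and 10.80 in iv saline, at 11.00, 11.76 and 12.29 at iv 200 and at 11.72, 12.82 and 13.27 at iv 400 mg/kg. In ip mice it moved from 10.21, 10.45 and 10.93 to 12.11, 12.84 and 13.07. Ifitm3 had the lowest adjusted p of the set at iv 200 mg/kg, with a rise of 1.12 ± 0.20 (adjusted p = 0.00026), and rose by 2.12 ± 0.20 and 2.17 ± 0.20 at the 400 mg/kg doses.

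Ifih1, a cytosolic sensor of double-stranded RNA, went from 6.14, 6.63 and 7.16 in iv saline to 6.93, 7.35 and 7.74 at iv 200, then to 7.29, 7.89 and 9.18 at iv 400 mg/kg. By ip it went from 7.25, 7.54 and 7.64 to 8.30, 8.86 and 9.38. The 400 mg/kg groups did not overlap saline, and Ifih1 rose by 0.69 ± 0.19, 1.39 ± 0.19 and 1.40 ± 0.19 at iv 200, iv 400 and ip 400 mg/kg. The remaining members spanned a wide range at ip 400 mg/kg. Ifi47, an immunity-related GTPase, rose by 2.83 ± 0.28, Ifit2, which restrains viral translation, by 2.46 ± 0.30, and Ifi30, a lysosomal thiol reductase that prepares antigens for class II molecules, by 0.80 ± 0.09. Ifi27l2b had the smallest change, 0.44 ± 0.13, and did not pass under quantile normalization (0.24, adjusted p = 0.067) or with only the compared groups in the fit (adjusted p = 0.057).

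The 14 genes that rose at iv 200 mg/kg were the 5 class II genes, Tapbp, Psmb8, Gbp2, Gbp7, Ifi202b, Ifi30, Ifih1, Ifitm3 and Irf9. Individual mice differed widely. Psmb8 was at 8.49 in mouse 25, 8.08 in mouse 29, 7.77 in mouse 30, 7.59 in mouse 27, 7.09 in mouse 26 and 6.54 in mouse 28, against at most 6.60 on iv saline. Averaged over the 42 tested genes and set against iv saline, the same mice were at 1.05, 0.71, 0.64, 0.68, 0.38 and 0.04. Mouse 25 was thus highest and mouse 28 close to saline on both measures. Among iv arrays, those of iv saline mouse 1 and iv 50 mouse 9 stood apart, with 90th percentiles of 8.29 and 8.28 against 8.62 to 8.75 in the other iv arrays. The count of 14 depended on single mice, with 8 calls without iv saline mouse 1, 7 without iv 200 mouse 25 and 9 without mouse 27, 29 or 30. With only the 2 compared groups in the fit it was 3, and across the leave-one-out fits it ranged from 7 to 21.

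Effects of 400 mg/kg were compared between routes by the interaction, the ip difference minus the iv difference. It passed for 3 of 42 genes, all larger by ip, where 5.34% of all tested probe sets were called and 3.81% were larger by ip. Of all called probe sets 71.3% were larger by ip, and 55.6% with arrays centred. The median interaction over the 42 genes was 0.33, and over all tested probe sets 0.01. Gbp8, a guanylate-binding protein under the table's median on saline, lay at 2.90, 2.95 and 3.19 in iv saline and 3.06, 3.53 and 5.13 at iv 400 mg/kg, and at 3.01, 3.05 and 3.17 in ip saline and 4.50, 5.66 and 6.60 at ip 400 mg/kg. Its iv groups overlapped and its ip groups did not. The fitted differences, 0.84 ± 0.22 by iv and 2.57 ± 0.22 by ip, and their interaction of 1.72 ± 0.32 (adjusted p = 0.00053) start from a level not told from background. Gbp8 was tested only because of the groups where it is high, so the sizes are approximate.

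Ifitm1 and Oas1c were the other 2. Ifitm1, a relative of Ifitm3, lay at 6.75, 8.03 and 8.28 in iv saline and 8.62, 8.98 and 9.74 at iv 400 mg/kg, and at 6.35, 7.73 and 7.84 in ip saline and 9.53, 10.03 and 10.24 at ip 400 mg/kg. Its groups were separate by both routes, and the interaction was 1.32 ± 0.39 (adjusted p = 0.035). Oas1c was at 3.44, 3.58 and 3.93 at iv 400 and 3.64, 4.17 and 4.81 at ip 400 mg/kg, with an interaction of 0.56 ± 0.17 (adjusted p = 0.047), close above the table's median. The count of 3 was 1 without any one of iv saline mice 2 or 5, iv 400 mice 44 or 45, ip saline mice 61 or 66, or ip 400 mice 104 or 108, and 7 without iv 400 mouse 48.

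For the other 39 tested genes the interaction did not pass, which leaves intervals of some width. For H2-Ab1 it was 0.02, with a 95% interval of -0.81 to 0.85, and for Psmb8 0.32, with an interval of -0.42 to 1.07. For Irf7 it was 0.97, with an interval of 0.16 to 1.79 (adjusted p = 0.15), and for Ifi202b 1.09, with an interval of 0.12 to 2.07 (adjusted p = 0.18). Irf9 had the lowest value, -0.32, with an interval of -0.95 to 0.31.

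At 200 mg/kg the interaction, added after the data were seen, was called for 0 of 42 genes (limma, background 0.59%), and 18 had an unadjusted p under 0.05. With arrays weighted by quality 10 were called, all smaller by ip, and 6 and 2 were called without iv 200 mouse 28 and mouse 26. The different call counts of the routes at 200 mg/kg are therefore not shown by this test to be a difference between routes.

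**Figure D3:**
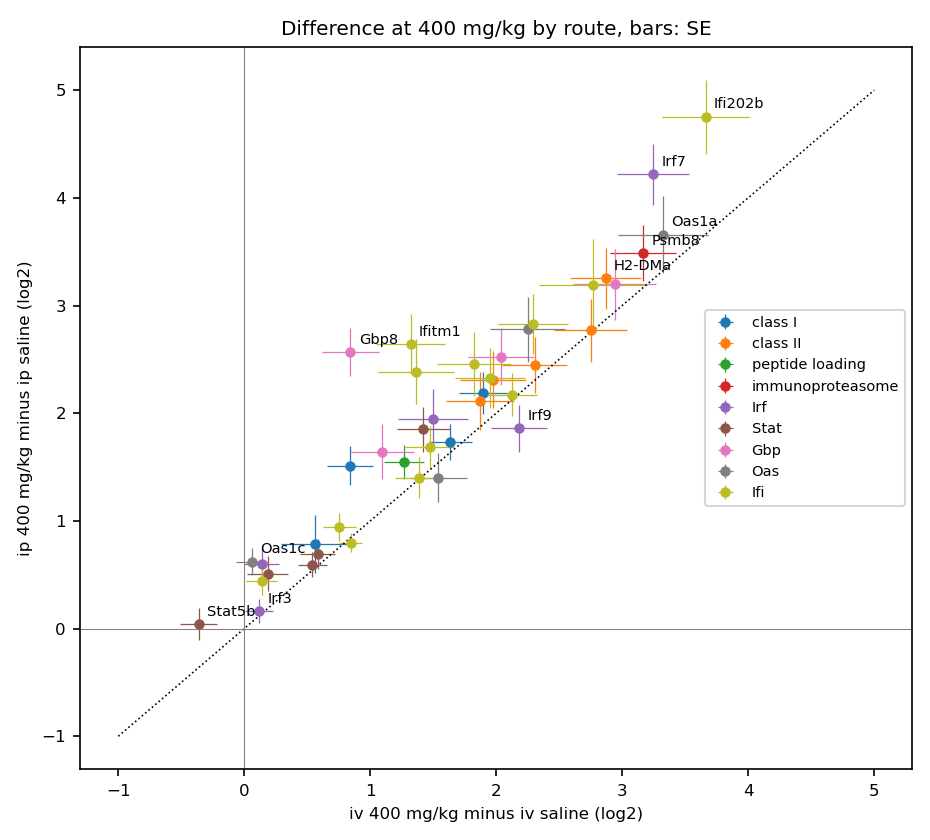
Difference from saline at iv 400 mg/kg (horizontal axis) and ip 400 mg/kg (vertical axis), in log2 units, for the 42 tested genes coloured by role; bars are standard errors and the dotted line marks equal differences. Most points lie near or just above the line, and Gbp8 and Ifitm1 stand farther above it, at 2.57 against 0.84 and 2.64 against 1.32.

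Levels of the saline groups cannot be compared between routes. Arrays of the 24 ip mice were brighter as a whole, with 90th percentiles of 9.07 to 9.23 against 8.28 to 8.75 in the 24 iv arrays. In ip saline against iv saline 57.9% of all tested probe sets were called, 54.3% as higher, with a median of 0.41. That median was 0.25 with arrays centred and -0.005 under quantile normalization. Of the 42 genes 11 were called higher in ip saline, Irf9 by 1.02 ± 0.22 and Gbp2 by 1.01 ± 0.33 among them, while Irf7 differed by -0.01 ± 0.29. Route and any batch of arrays cannot be told apart.

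Other genes of the pathway were counted by list, where 23.8% of all tested probe sets were higher at iv 400 and 31.7% at ip 400 mg/kg. Of 31 further interferon-stimulated genes that were named and lie outside the symbol rule, 30 were tested, 25 rose at iv 400 and 26 at ip 400 mg/kg, with medians of 1.23 and 1.48. Znfx1 fell at ip 400 mg/kg and no other gene of this list fell. Cxcl10, a chemokine for activated T cells, rose by 1.32 ± 0.37 at iv 200 (adjusted p = 0.025), 3.61 ± 0.37 at iv 400 and 3.60 ± 0.37 at ip 400 mg/kg. Bst2, which tethers budding virus, and Dtx3l, a ubiquitin ligase, rose by 2.63 ± 0.25 and 2.39 ± 0.22 at ip 400 mg/kg.

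Of receptors, kinases and phosphatases of the pathway, 7 were tested, and 5 rose at iv 400 and 6 at ip 400 mg/kg. Ifngr2, the signalling chain of the interferon gamma receptor, was higher by 1.76 ± 0.40 and 2.47 ± 0.40, and the phosphatases Ptpn1 and Ptpn2 by 1.52 ± 0.17 and 1.24 ± 0.15 at ip 400 mg/kg. Of 14 tested genes for other steps of antigen presentation, 7 rose at iv 400 and 8 at ip 400 mg/kg, with medians of 0.61 and 0.38. Erap1, which trims peptides for class I molecules, rose by 1.73 ± 0.19 and Mr1, a class I-like molecule for vitamin metabolites, by 1.33 ± 0.35 at ip 400 mg/kg. The transcript of interferon gamma, Ifng, stayed under the table's median, with means of 2.56 and 2.55 in iv saline and iv 400 and 2.55 and 2.44 in ip saline and ip 400 mg/kg.

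Markers of macrophages and monocytes moved with these genes in each dose comparison that had calls. Among all tested probe sets 4.22% were higher at iv 200, 23.8% at iv 400 and 31.7% at ip 400 mg/kg. All 19 named markers were tested, and 14 rose at iv 200, 18 at iv 400 and 19 at ip 400 mg/kg, with medians of 1.42, 3.16 and 4.29. Their summed intensity ranged from 792 to 935 in iv saline, 1022 to 4990 at iv 200 and 6333 to 17113 at iv 400 mg/kg, and from 793 to 1462 in ip saline to 14612 to 33322 at ip 400 mg/kg. None of the 19 lay under the table's median in every group. Ptprc, the leukocyte common antigen, rose by 1.54 ± 0.27, 2.83 ± 0.27 and 3.65 ± 0.27 at iv 200, iv 400 and ip 400 mg/kg. Ms4a6b, Ly86 and Cd14 had the largest marker differences at ip 400 mg/kg, 6.02 ± 0.36, 5.90 ± 0.35 and 5.78 ± 0.41. The part of these cells in the rise of the interferon and antigen presentation genes was not tested, and in whole kidney more or fewer cells of a type and more or less RNA per cell cannot be told apart.

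The mouse at each end of both scales was the same in the iv 200 and iv 400 groups, and at the low end only in the ip 400 group. Among iv 200 mice the macrophage marker mean, set against iv saline, was highest in mouse 25, at 2.17, and lowest in mouse 28, at 0.23. At iv 400 mg/kg it was highest in mouse 48, at 3.76, and lowest in mouse 44, at 2.11, and the mean of the 42 genes was also highest and lowest in these mice, at 2.22 and 1.10. At ip 400 mg/kg mouse 105 was lowest on both, while the mean of the 42 genes was highest in mouse 104, at 2.38, and the marker mean in mouse 108, at 4.75. Class II genes and Irf8 are themselves made by macrophages, so the lists are not separate measures of one cell type.

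Other leukocyte lists were mostly too dim to judge. Of 11 named T and NK cell markers 9 lay at or under the table's median in every group, and their sum ranged from 72.2 to 80.4 in iv saline, 70.6 to 81.5 at iv 400, 72.9 to 81.6 in ip saline and 71.0 to 124 at ip 400 mg/kg. Cd8a, the only one tested, fell by 0.39 ± 0.10 at ip 400 mg/kg. Likewise 6 of 7 B and plasma cell markers, 3 of 4 neutrophil markers and all 3 dendritic cell markers lay at or under the median in every group. The B cell sum ranged from 41.1 to 48.4 in iv saline, 42.1 to 48.2 at iv 400, 39.6 to 42.5 in ip saline and 40.2 to 74.4 at ip 400 mg/kg. The neutrophil sum ranged from 23.5 to 26.7 in iv saline, 24.7 to 32.1 at iv 400, 24.5 to 25.6 in ip saline and 24.0 to 69.5 at ip 400 mg/kg. The dendritic cell sum ranged from 12.8 to 13.9 in iv saline, 13.1 to 33.6 at iv 400, 12.6 to 13.5 in ip saline and 12.2 to 19.3 at ip 400 mg/kg. Csf3r, a neutrophil and monocyte receptor, rose by 1.27 ± 0.23 at ip 400 mg/kg. Of 10 endothelial markers, 1 fell at iv 400 mg/kg, and 1 rose and 1 fell at ip 400 mg/kg. Calls in either direction made up 41.2% of all tested probe sets at iv 400 and 57.2% at ip 400 mg/kg.

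Kidney identity genes went the other way. Of 11 named genes of tubules and podocytes, 9 fell at iv 400 and 10 at ip 400 mg/kg, with medians of -1.39 and -2.41, and none passed at iv 200 mg/kg. Lower calls made up 17.5% of all tested probe sets at iv 400 and 25.5% at ip 400 mg/kg. Pvalb, a marker of the distal convoluted tubule, fell by 5.83 ± 0.46 at ip 400 mg/kg. At that dose Slc22a6, which takes up organic anions in the proximal tubule, fell by 2.91 ± 0.30, and Kl, the co-receptor Klotho, fell by 2.89 ± 0.27.

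**Figure D4:**
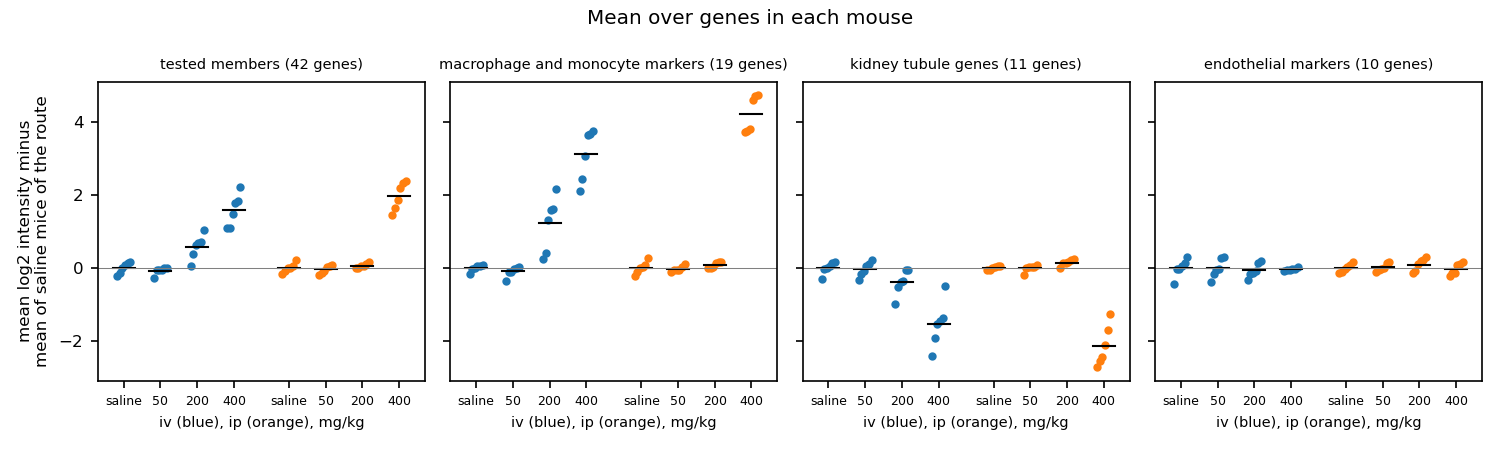
Mean log2 intensity over genes in each mouse (points), minus the mean of saline mice of the same route (vertical axis), by route and dose (horizontal axis); panels show the 42 tested genes, 19 macrophage and monocyte markers, 11 kidney tubule and podocyte genes and 10 endothelial markers, and black bars are means of 6 mice. The first 2 panels rise at iv 200, iv 400 and ip 400 mg/kg, to means of 1.98 and 4.22 at ip 400 mg/kg, the third falls to -2.14, and the endothelial panel stays near 0.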

How the data were processed

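Whole-kidney RNA of 48 mice was hybridised to Affymetrix arrays, 1 mouse per array. The deposited values are intensity on a linear scale, made by the authors with GCRMA per the submitters' processing notes, whose version is not given in the sources used here. Nothing was imputed. Log2 was taken without an offset. Names came from the platform table at position shifts of 64, -47 and -16168 in rows 751 to 3250, 5001 to 11750 and 34251 to 36000, as found in earlier work on these data, which gave 10198 of 45101 probe sets a symbol. Of 21 windows of 500 rows, 15 had levels best predicted by gene annotation at the stated shift, out of 44602 shifts compared. The worst rank was 371, and the median correlation was 0.25 at the stated shift against 0.003 as listed. The brightest probe set stood for a gene.

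A probe set was tested where its value exceeded the table's median of 3.47 in at least 6 arrays. All 8 groups were fitted together with limma 3.58.1 in R 4.3.3 (lmFit and contrasts.fit, then eBayes with a trend on mean level, with 40 degrees of freedom left), two-sided, with Benjamini-Hochberg adjustment over 24930 probe sets and a threshold of 0.05. Intervals are 95%. The fit was tested on simulated data. Mice have their own numbers and were treated as unpaired. The labels name no batch, and the number of arrays limits the precision. Genes and lists were chosen with earlier results of these data known. By rule, lowest, median and highest values were given for 23 genes, namely the 2 largest called changes per role at each 400 mg/kg dose, up to 10 calls at 50 or 200 mg/kg, and a list of central genes. Of other lists, the 3 largest changes at ip 400 mg/kg and a few central genes could be named. Values of Ifitm1, Oas1c and Stat5b, and further list genes such as Ifng, Cd8a, Csf3r and Znfx1, were added after their values were seen. Alternatives changed scaling, filter, fit, offset, probe set choice and naming, and left out each mouse.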

Additional observations from a re-analysis of the deposited data

Results flagged for a closer look

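In 18 of 184 groups of 6 mice tested (23 genes by 8 groups), 1 mouse lay far from the other 5 by Dixon's criterion, where chance alone gives about 1 in 20. Mouse 9 of iv 50 mg/kg was the low value for 4 genes, with Gbp2 at 2.67, Gbp7 at 5.885, Oas1a at 2.87 and Tapbp at 8.58. Its array had the lowest 90th percentile of all iv arrays, 8.28. Mouse 44 of iv 400 mg/kg was low in H2-Aa, at 9.58, and H2-Ab1, at 9.15, and mouse 105 of ip 400 mg/kg was low in H2-DMa, at 6.48, while mouse 106 was high in Irf3, at 9.00. At the lower doses, Irf7 was 3.20 in mouse 12 and Stat2 3.20 in mouse 11 of iv 50, Stat2 was 4.06 in mouse 26 of iv 200, H2-D1 was 10.99 in mouse 71, H2-DMa 4.92 in mouse 72 and Stat2 3.14 in mouse 70 of ip 50, and Ifi202b was 3.97 in mouse 89 and Oasl1 3.75 in mouse 85 of ip 200 mg/kg. Gbp8 was high in iv saline mouse 1, at 3.19, and in ip saline mouse 63, at 3.17.

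The interaction of route and 400 mg/kg passed for Gbp8 (1.72 larger by ip), Ifitm1 (1.32) and Oas1c (0.56). Gbp8 was under the table's median on saline and Oas1c close above it, and the count fell from 3 to 1 under a filter by mean and without any one of 8 mice.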

How the results depend on the processing

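Counts of called genes at iv 400 and ip 400 mg/kg stayed within 34 to 36 and 37 to 45 over the scalings, filters, fits, offset of 16 and probe set choices tried, and within 35 to 36 and 40 to 40 when each mouse was left out, and no called difference changed sign. The calls at iv 200 mg/kg were less stable, at 3 instead of 14 with only the compared groups in the fit and 7 to 21 without single mice. The interaction at 400 mg/kg had 1 call instead of 3 under a filter by mean or with only the compared groups, and 1 to 7 without single mice. The interaction at 200 mg/kg had 10 with array weights and 0 to 6 without single mice. Ip against iv saline had 17 instead of 11 with only the compared groups. With rows named as listed, 70 other rows were tested and gave 1 call at iv 50, 6 at iv 200, 18 for iv 400 against iv 200, 41 for ip against iv saline and 1 for the 200 mg/kg interaction, beside 27 at iv 400 (19 higher, 8 lower) and 40 at ip 400 (29 higher, 11 lower). Over all tested probe sets, whatever their names, 41.2% were called at iv 400, 57.2% at ip 400 and 57.9% for ip against iv saline. The shares were 0.786% at iv 50, 5.38% at iv 200, 24.2% for iv 400 against iv 200 and 0.59% for the 200 mg/kg interaction. Stretches 1, 2 and 3 of the named rows held 12, 36 and 3 of the 51 genes, tested or not. Within each stretch alone, calls at ip 400 were 11, 26 and 3, and for ip 400 against ip 200 11, 24 and 3. In stretches 1 and 3 they were 9 and 3 at iv 400, 2 and 2 at iv 200, 8 and 3 for iv 400 against iv 200, and 1 and 0 for the saline groups, and the interaction at 400 mg/kg had 1 in stretch 2 and 0 in stretch 3. Centring arrays on their medians moved the share of higher calls among all called probe sets from 55.6% to 43.3% for ip 400 against ip 200, from 55.4% to 46.2% for ip 400 against saline, from 57.6% to 50.5% for iv 400 against saline, from 52.6% to 48.2% for iv 400 against iv 200 and from 71.3% to 55.6% for the 400 mg/kg interaction. For ip saline against iv saline that share went from 93.9% to 85.8%. No paired analysis was possible because mouse numbers are not shared between groups. The cause of these changes was not tested. Genes near the table's median carry little signal over background, so their changes are approximate.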
